A study of Homo sapiens with 15 samples.

Results

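Tetraspanins, the family of small membrane proteins to which CD9 belongs, were followed in IMR32 cells, an established human neuroblastoma line, after induction of the homeodomain transcription factor MSX1. The members were all genes whose single symbol in the array's annotation was TSPAN followed by a number, or CD9, CD37, CD53, CD63, CD81, CD82 or CD151. They came to 28 genes of the 19775 with a single symbol, measured by 55 probe sets, and the probe set with the highest mean signal over the arrays stood for each gene. Of the 28, 22 had a signal at or above the array's median on at least 3 arrays and were tested.

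The 15 Affymetrix arrays fell into 5 groups of 3. All cells carried an inducible MSX1 gene. They were taken at t = 0, at t = 8, t = 24 and t = 48 after doxycycline was put in the medium, and, as controls, at t = 48 after the same culture without it. No uninduced cells were taken at t = 8 or t = 24. Changes at those times thus cannot be told apart from effects of time in culture. The labels state no unit of time, do not say whether the line was 1 clone, and include no cells without the construct that received doxycycline. The labels do not say that the 3 arrays of a group came from separate cultures, and the spread behind each p-value may thus be technical. Values are MAS5 signals on a linear scale. Differences are log2 fold changes of signal + 5.16 from limma, and a gene is said to have passed where its p-value, adjusted over all genes tested by the Benjamini-Hochberg method, was under 0.05. Cells were measured in bulk, so fewer cells with a transcript and less of it per cell cannot be told apart.

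Tetraspanins cross the membrane 4 times and carry a large outer loop held by disulphide bonds. They bind each other and partner proteins, among them integrins, immunoglobulin-like proteins and the sheddase ADAM10, and so group these partners in the membrane. CD9, CD63 and CD81 are widely used as markers of extracellular vesicles. Several members, CD9 and CD82 among them, are known for their part in cell motility and metastasis of solid tumours.

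The induced gene was looked at first. MSX1 read, on the brighter of 2 probe sets, 110.9 ± 13.6 at t = 0, 83.2 ± 14.7 in induced and 50.7 ± 4.52 in control cells at t = 48 (SD, n = 3 each; log2 fold change 0.65, SE 0.15, limma adjusted p = 0.0163). Between these times it read 160.8 ± 22.1 at t = 8 and 165.3 ± 20.8 at t = 24, the latter above t = 0 (0.56, adjusted p = 0.0299). It fell from t = 24 to t = 48 in induced cells (-0.95, adjusted p = 0.00207) and from t = 0 to t = 48 in controls (-1.05, adjusted p = 0.005). The dimmer probe set did not show this rise, at 30.4 ± 5.39 at t = 0, 23.2 ± 0.61 at t = 8 and 21.8 ± 5.29 at t = 24. At t = 48 it read 13.2 ± 6.06 in induced and 20.1 ± 9.93 in control cells. Whether either probe set lies in the construct is not known here. The ratio of 3' to 5' control probe sets of GAPDH lay between 0.962 and 1.089 on the 15 arrays. On induced t = 24 replicate 1 and induced t = 48 replicate 3 the bioC hybridisation control was weak, at 101.3 and 121.2, against 305.9 to 467.8 on the others. Of 9 neuroblastoma markers on the array, TH alone was below the mean array median of 20.1, and the summed signal of the 9 lay between 10760 and 13560 in all groups. Within that sum CHGA (0.90) and PHOX2A (0.70) were higher and ISL1 lower (-1.20) in induced than control cells at t = 48 (adjusted p between 0.000201 and 0.00819). All 3 Schwann cell markers, 4 of 7 blood markers including PTPRC, 4 of 5 endothelial and 3 of 5 epithelial markers including EPCAM were below that median. The summed signal of 9 fibroblast markers moved with the groups: 1289 to 1420 at t = 0, 1718 to 1898 at t = 8, 2535 to 2582 at t = 24, 2111 to 2161 at induced t = 48 and 1568 to 1686 in controls. Of the 9, on their brightest probe sets, LUM (2.53), PDGFRA (0.40) and COL3A1 were higher in induced than control cells at t = 48, and these and COL1A1 (1.38) had also risen by t = 24 from t = 0. The 6 other fibroblast markers did not pass against controls, and the median of the 9 was -0.04, against -0.01 over all genes. Other probe sets of LUM, PDGFRA and COL3A1 did not pass in that comparison. KDR, an endothelial marker, had risen by t = 24 (1.17, adjusted p = 0.0294). The part of these markers in the results below was not tested.

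Of the tetraspanin genes that passed in any comparison CD9 changed most, and it changed both ways. Its signal rose between t = 8 and t = 24, times without uninduced controls, and then fell, by t = 48, to below the level of the uninduced controls at t = 48. The start of the gene lies on chromosome 12, and the 250 bases before its most upstream listed start (chr12:6199696-6199945, plus strand, GRCh38.p14, RefSeq) are printed for CD9 with those of CD63 and TSPAN31. CD63 and TSPAN31 lie on chromosome 12 (chr12:55730042-55730291, minus strand, for CD63 and chr12:57744789-57745038, plus strand, for TSPAN31). They are shown because these genes passed in more than 1 comparison. Windows were matched for 20 of the 28 genes, and not for CD37, CD81, CD151, TSPAN3, TSPAN7, TSPAN9, TSPAN18 and TSPAN32. Homeodomain proteins such as MSX1 are known to bind sites with a TAAT core, so capitals mark TAAT, or ATTA on the other strand.
CD9: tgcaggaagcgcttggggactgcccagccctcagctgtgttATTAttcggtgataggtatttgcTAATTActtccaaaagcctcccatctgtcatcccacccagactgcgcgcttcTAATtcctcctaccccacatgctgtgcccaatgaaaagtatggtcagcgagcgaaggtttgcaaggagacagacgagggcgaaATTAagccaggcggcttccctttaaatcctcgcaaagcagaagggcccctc
CD63: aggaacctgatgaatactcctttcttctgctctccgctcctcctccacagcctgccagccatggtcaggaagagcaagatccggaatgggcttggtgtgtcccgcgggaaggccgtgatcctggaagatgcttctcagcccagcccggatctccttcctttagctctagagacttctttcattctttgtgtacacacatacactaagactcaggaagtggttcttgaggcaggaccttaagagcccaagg
TSPAN31: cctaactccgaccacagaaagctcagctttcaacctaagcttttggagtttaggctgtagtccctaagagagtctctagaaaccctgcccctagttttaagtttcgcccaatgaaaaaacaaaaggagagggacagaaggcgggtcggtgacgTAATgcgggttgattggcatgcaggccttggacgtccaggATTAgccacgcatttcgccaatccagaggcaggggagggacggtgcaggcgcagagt

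The CD9 window held 5 such matches, of which 1 pair overlapped, the TSPAN31 window held 2 and the CD63 window 0. These are the windows farthest upstream. The 3 other CD9 windows held 0 matches each, and 2 of the 7 other CD63 windows, which nearly coincide, held 1. Over all 35116 windows of this length 47.4% held TAAT on either strand. Of the 40 windows listed for 20 of the tetraspanin genes 12 held it, or 30.0%. The longer motif TAATTG, which contains TAAT, was in 0 of the 40 windows and in 6.7% of all windows. The GC box GGGCGG was in 26 of the 40, or 65.0%, against 42.6% of all windows, and TATAAA in 0 of 40 against 10.7%. The 40 windows had a median GC content of 63.8%, against 58.0% over all windows. These counts describe letters within the windows, and windows of 1 gene can overlap.

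On its brightest probe set CD9 read 235.7, 225.4 and 195.9 at t = 0 and 264.8, 229.5 and 224.9 at t = 8. It then read 401.6, 401.7 and 375.7 at t = 24 and 63.1, 75.2 and 78 at t = 48. In control cells at t = 48 it read 159.5, 191.2 and 159.4. All 3 arrays of induced t = 24 lay above every other array, and all 3 of induced t = 48 lay below every other array.

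**Figure D1:**
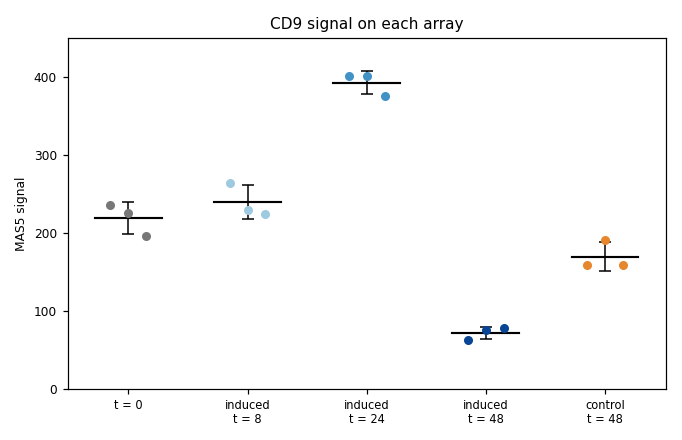
MAS5 signal of CD9 (vertical axis, linear, from 0) on each of the 15 arrays, by group (horizontal axis); points are arrays in the order of their replicate numbers, horizontal bars are means and error bars are SD (n = 3). Induced cells at t = 24 sit between 375.7 and 401.7 and induced cells at t = 48 between 63.1 and 78, while controls at t = 48 sit between 159.4 and 191.2.

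The mean rose from 219 ± 20.7 at t = 0 (SD, n = 3) to 393 ± 14.98 at t = 24, a log2 fold change of 0.83 (SE 0.11, adjusted p = 0.000331). The step from t = 8, with a mean of 239.7 ± 21.8, was 0.70 (adjusted p = 0.00289). From t = 24 to t = 48 CD9 fell by 2.37 on the log2 scale to 72.1 ± 7.92, a 5.17-fold difference (SE 0.11, adjusted p = 3.51e-07). Against controls at t = 48, which had a mean of 170 ± 18.3, it was lower by 2.27-fold (-1.18, adjusted p = 2.5e-05), and against t = 0 by 2.9-fold (-1.54, adjusted p = 2.12e-06). In the order of the group means, t = 24 was highest, followed by t = 8, t = 0, the controls and induced t = 48. The neighbours t = 8 and t = 0 did not differ past the threshold (0.13, adjusted p = 0.841), nor did t = 0 and the controls (-0.36, adjusted p = 0.194), although the arrays of these last groups did not overlap.

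These 5 calls for CD9 were kept in each of the 90 refits with another offset, scaling, filter, probe set rule, variance model or set of arrays, where the fall from t = 24 to t = 48 lay between -2.44 and -2.22. They rest on 1 probe set. The 2 others read CD9 at means of 19.7 and 3.39, both below the mean array median of 20.1, and passed in 0 of the 7 comparisons. The brighter of them gave -0.67 against controls at t = 48 (adjusted p = 0.299) and -0.03 at t = 24 against t = 0 (adjusted p = 0.981).

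The family as a whole was read against the share of all 12868 genes that passed. With induced set against control cells at t = 48, 2 of the 22 tetraspanin genes passed (9.09%), where 8.6% of all genes did, 5.31% higher and 3.29% lower. The 2 were TSPAN18, higher, and CD9, lower, and their share is near the background and no result about the family. At t = 8 against t = 0, 0 passed by limma and 0 had an unadjusted p under 0.05, where 2.1% of all genes passed, 1.1% higher and 0.995% lower. At t = 24 against t = 0, 3 passed (13.6%), with CD9 and TSPAN31 higher and CD63 lower, where 10.8% of all genes passed, 5.96% higher and 4.87% lower. At induced t = 48 against t = 0, 9 passed (40.9%), 6 higher and 3 lower, where 18.1% of all genes passed, 9.93% higher and 8.2% lower. In controls between t = 0 and t = 48, 0 passed by limma and 5 had an unadjusted p under 0.05, where 0.847% of all genes passed, 0.482% higher and 0.365% lower. From t = 8 to t = 24, 2 passed, CD9 higher and CD63 lower, where 6.29% of all genes did, 3.46% higher and 2.84% lower. From t = 24 to t = 48, 2 passed, TSPAN7 higher and CD9 lower, where 4.04% of all genes did, 2.42% higher and 1.62% lower.

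The split of all genes into higher and lower depended on the scaling. With each array centred on the median of the genes tested, 542 genes were higher and 621 lower than controls at t = 48, against 683 and 424 as deposited. The same centring gave 603 and 1031 against 767 and 627 for t = 24 to t = 0, 1028 and 1620 against 1278 and 1055 for induced t = 48 to t = 0, and 340 and 686 against 445 and 365 for t = 24 to t = 8. Centred on the median of all probe sets, the last was 162 and 75.

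**Figure D2:**
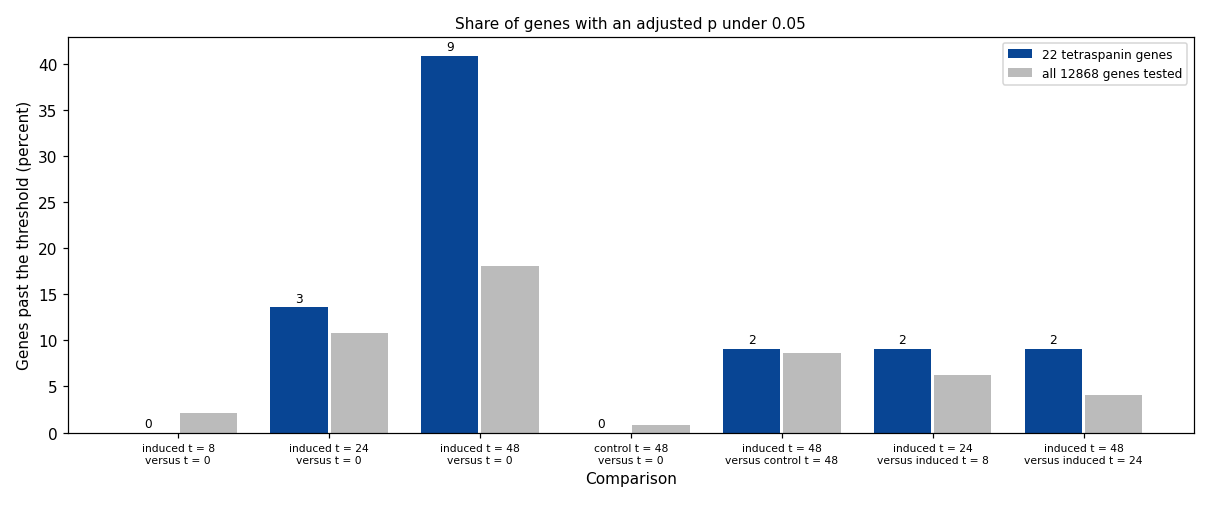
Share of genes with a limma adjusted p under 0.05 (vertical axis, percent) in each of the 7 comparisons (horizontal axis), for the 22 tested tetraspanin genes (dark bars, with their number above) and all 12868 genes tested (grey bars). The share was 40.9% against 18.1% at induced t = 48 against t = 0, and 9.09% against 8.6% between induced and control cells at t = 48.

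CD81 and TSPAN2 are the nearest relatives of CD9 that were tested. CD81, which binds immunoglobulin-like partners, stayed between 1237.5 and 1547.2 on all 15 arrays. Its differences lay between -0.17 and 0.05, and it passed in 0 of the 7 comparisons, with a lowest adjusted p of 0.415. TSPAN2, known from myelinating glia, read 55, 53.5 and 52.7 at t = 0, and 72.1, 78.1 and 84.4 at induced t = 48. The groups did not overlap, and the rise was 0.50 (SE 0.14, adjusted p = 0.0243). Controls at t = 48 read 59.5, 74.5 and 91.3, spanning the induced arrays, with 0.43 against t = 0 (adjusted p = 0.214) and 0.07 between induced and control cells (adjusted p = 0.789). The call for TSPAN2 was lost in 8 of 18 refits, among them on omitting t = 0 replicate 2 (adjusted p = 0.0617) or 3 (0.0659) and without induced t = 48 replicate 2 (0.0613) or 3 (0.0866). It was also lost with arrays centred on their median (0.116) and with quantile normalization (0.0528). Its 2 other probe sets, below the filter, gave 0.12 and 0.25 for this step and did not pass.

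CD63, a tetraspanin of late endosomes and lysosomes, fell in induced cells. It read 1958, 2099.2 and 1857 at t = 0, and 2166.7, 1948.8 and 1931.7 at t = 8. It then read 1367.7, 1609.1 and 1558.9 at t = 24, and 1549, 1428.9 and 1256.5 at t = 48. The arrays of t = 24 and t = 48 were all below those of t = 0 and t = 8, and overlapped with each other. The fall from t = 0 was -0.38 at t = 24 (SE 0.10, adjusted p = 0.0298) and -0.48 at t = 48 (adjusted p = 0.00617), and that from t = 8 to t = 24 was -0.41 (adjusted p = 0.0321). Controls at t = 48 read 1905.6, 1622.7 and 1703.3, and induced cells were below all of them by -0.31, which did not pass (adjusted p = 0.0867). The call at t = 48 against t = 0 was kept in all 18 refits of that comparison (-0.55 to -0.40). At t = 24 it was lost in 9 of 18 refits, among them those with arrays centred on their median (adjusted p = 0.081), with quantile normalization (0.0589), with no filter (0.0691) and without induced t = 24 replicate 1 (0.111) or 3 (0.0577), or t = 0 replicate 1 (0.0676) or 2 (0.104). The step from t = 8 to t = 24 was lost in 10 of 18, among them those without any 1 of 5 arrays, induced t = 8 replicates 1, 2 and 3 (0.115, 0.0668 and 0.0565) and induced t = 24 replicates 1 and 3 (0.115 and 0.0633).

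TSPAN7, a tetraspanin of neurons whose gene is mutated in some forms of X-linked intellectual disability, was higher at t = 48 with and without induction. It read 132.5, 95.1 and 126.4 at t = 0, 90.8, 113.2 and 111.3 at t = 8, and 95.9, 103.4 and 95.2 at t = 24. It then read 164.3, 170 and 186.6 in induced and 138.7, 170.3 and 193.6 in control cells at t = 48. All arrays of t = 48, induced or control, were above all of the earlier arrays, and the induced and control arrays overlapped. The rise from t = 24 to t = 48 was 0.79 (SE 0.14, adjusted p = 0.00554), and that from t = 0 to induced t = 48 was 0.55 (adjusted p = 0.0185). Controls differed from t = 0 by 0.49, which did not pass (adjusted p = 0.167), and induced from control cells by 0.06 (adjusted p = 0.831). The rise from t = 24 was lost on omitting the 2 arrays with a weak bioC control (adjusted p = 0.0753) and with arrays centred on their median (0.0657). That from t = 0 was lost in 5 of 18 refits, among them on omitting t = 0 replicate 2 (0.0702) or induced t = 48 replicate 3 (0.0681).

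The other members linked to endosomes, TSPAN3 and TSPAN6, passed in 0 of the 7 comparisons. TSPAN3 read 1878.3 to 2127.7 on the 15 arrays, with differences between -0.11 and -0.01 in log2 terms. TSPAN6 read 969.7 to 1261.6, with differences between -0.12 and 0.13.

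The TspanC8 members, named for the 8 cysteines of their large loop, bind ADAM10, the protease that sheds Notch receptors and other surface proteins, and help it leave the endoplasmic reticulum. Of 5 tested, TSPAN5, TSPAN14, TSPAN15, TSPAN17 and TSPAN33, 1 passed in any comparison. That call was for TSPAN5 at induced t = 48 against t = 0, where 18.1% of all genes passed. TSPAN5 read 265.1, 277.5 and 257.7 at t = 0, 377, 343.2 and 334.2 at induced t = 48, and 313.4, 313.9 and 377.4 in controls. The induced arrays were above those of t = 0 and overlapped with the controls. TSPAN5 rose by 0.39 from t = 0 to induced t = 48 (SE 0.11, adjusted p = 0.0268), beside 0.32 in controls (adjusted p = 0.255) and 0.07 between induced and control cells (adjusted p = 0.729). Its 2 other probe sets gave 0.54 (adjusted p = 0.0501) and 0.36 (0.15) for the same step. The call was lost in 6 of 18 refits, among them with arrays centred on their median (0.139). It was also lost on omitting induced t = 48 replicate 1 (0.0821) or 2 (0.0567), or t = 0 replicate 1 (0.0628) or 3 (0.0786).

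Set against controls at t = 48, the other TspanC8 members gave 0.25 for TSPAN14, 0.19 for TSPAN15, 0.27 for TSPAN17 and -0.23 for TSPAN33, and none of the 4 passed (adjusted p between 0.251 and 0.545). A second probe set of TSPAN14 gave -0.08. ADAM10 itself rose over the same course. It read 730.2, 806.6 and 771.7 at t = 0, and 984.8, 1001.5 and 1012.6 at t = 24. At t = 48 it read 1235.3, 1204.7 and 1106.1 in induced and 844, 809.6 and 815.9 in control cells. The induced arrays at t = 48 were above all others, and the difference from controls was 0.52 (SE 0.07, adjusted p = 0.000407). Against t = 0 the rise was 0.38 at t = 24 (adjusted p = 0.00341) and 0.62 at t = 48 (adjusted p = 6.83e-05). A second probe set of ADAM10 gave 0.53 (adjusted p = 0.0244) and the dimmest 0.37 (0.0973). L1CAM, a neuronal adhesion protein that ADAM10 can shed, was also higher, at 225.9 ± 16.1 against 155.2 ± 9.93 (0.53, adjusted p = 0.0355). A second probe set of L1CAM, with a mean signal of 20.4, gave 1.425 and did not pass (adjusted p = 0.102). Of the 10 tested genes of the list of ADAM10 and its substrates, ADAM10 and L1CAM were the 2 that passed between induced and control cells. In that comparison 0 of the list were lower, where 5.31% of all genes were higher and 3.29% lower. Against t = 0, PRNP, the prion protein gene, was also higher at induced t = 48 (0.63, adjusted p = 0.0361), while its second probe set gave -0.33 (adjusted p = 0.374). For induced cells at t = 48, that list had a median of -0.07 against controls and 0.11 against t = 0. Over all genes tested these medians were -0.01 and -0.02.

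TSPAN18, known as a regulator of calcium entry in endothelial cells, was the second tetraspanin gene to pass between induced and control cells at t = 48. It read 314.7, 271.2 and 287.9 in induced and 219.9, 214.9 and 232.1 in control cells. The groups did not overlap, and the difference was 0.38 (SE 0.11, adjusted p = 0.0495). It lay just inside the threshold and was lost in 14 of 18 refits, among them those without any single array of the 6 (adjusted p from 0.0675 to 0.142) and all 3 other scalings (0.0601 to 0.155). Against t = 0, where TSPAN18 read 195.5, 228.9 and 210.6, the rise to induced t = 48 was 0.45 (adjusted p = 0.0136) and was kept in 17 of 18 refits, being lost on omitting t = 0 replicate 1 (0.0502). Controls differed from t = 0 by 0.07 (adjusted p = 0.864). The dimmer of its probe sets gave 0.42 for induced against control cells at t = 48 (adjusted p = 0.592). In that fit, over all probe sets without the filter, the brighter did not pass either (adjusted p = 0.151).

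TSPAN31, first named for its amplification in sarcomas, read 161.6, 118.1 and 166.6 at t = 0. It read 218.4, 203 and 234.3 at t = 24, above all arrays of t = 0, and 193.7, 208.9 and 214 at induced t = 48. The rises were 0.55 (SE 0.14, adjusted p = 0.0216) and 0.47 (adjusted p = 0.0332). Controls read 162.2, 179.3 and 192.7, all below the induced arrays at t = 48, with a difference of 0.20 between them (adjusted p = 0.396). The calls were lost in 6 and 8 of 18 refits. Without t = 0 replicate 2, the lowest array, the values were 0.40 (adjusted p = 0.0729) and 0.32 (0.117). The first was also lost on omitting induced t = 24 replicate 1 (0.0607) or 3 (0.0738), the second without induced t = 48 replicate 2 (0.0835) or 3 (0.098), and both with arrays centred on their median (0.145 and 0.168). The other probe set gave 0.33 and 0.03 and did not pass (adjusted p = 0.485 and 0.954), and gave -0.30 against controls (adjusted p = 0.549).

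TSPAN13 read 481.4, 289.4 and 503.3 at t = 0 and 656.7, 685.6 and 655.4 at induced t = 48, without overlap. The rise was 0.68 (SE 0.19, adjusted p = 0.0254). Controls read 475.5, 635.1 and 660.1, with 0.50 against t = 0 (adjusted p = 0.321) and 0.19 between induced and control cells (adjusted p = 0.587). The call was lost in 8 of 18 refits, among them on omitting t = 0 replicate 2 (0.43, adjusted p = 0.0682), without induced t = 48 replicate 1 (0.0532), 2 (0.0697) or 3 (0.0629), and with arrays centred on their median (0.106).

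TSPAN32, CD53 and CD37 are best known from blood cells, and were read at low signals here. TSPAN32 read 31.4, 44.8 and 22.6 at t = 0, 20.1, 11.2 and 19.5 at induced t = 48, and 29.4, 32.7 and 37.9 in controls. Induced arrays at t = 48 were below both other groups. The fall from t = 0 was -0.77 (SE 0.24, adjusted p = 0.0453), and the difference from controls of -0.82 fell short of the threshold (adjusted p = 0.0566). The call was lost in 9 of 18 refits, among them on omitting induced t = 48 replicate 1 (adjusted p = 0.0508), 2 (0.158) or 3 (0.0674), or t = 0 replicate 1 (0.0887) or 2 (0.166). A second probe set gave -0.99 for this step (adjusted p = 0.175). CD53 read 27.1, 32.7 and 34.8 at t = 0, 13.3, 17.3 and 26.8 at induced t = 48, and 38.7, 27.3 and 25.4 in controls, where the last groups overlap. The difference from controls was -0.57 (adjusted p = 0.154). CD37 read between 1.2 and 23 and was not tested. The summed signal of the 7 blood markers lay between 67.2 and 101.6 at induced t = 48, between 89.6 and 145.6 in controls and between 80.0 and 153.7 at t = 0, and its part in these values was not tested.

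**Figure D3:**
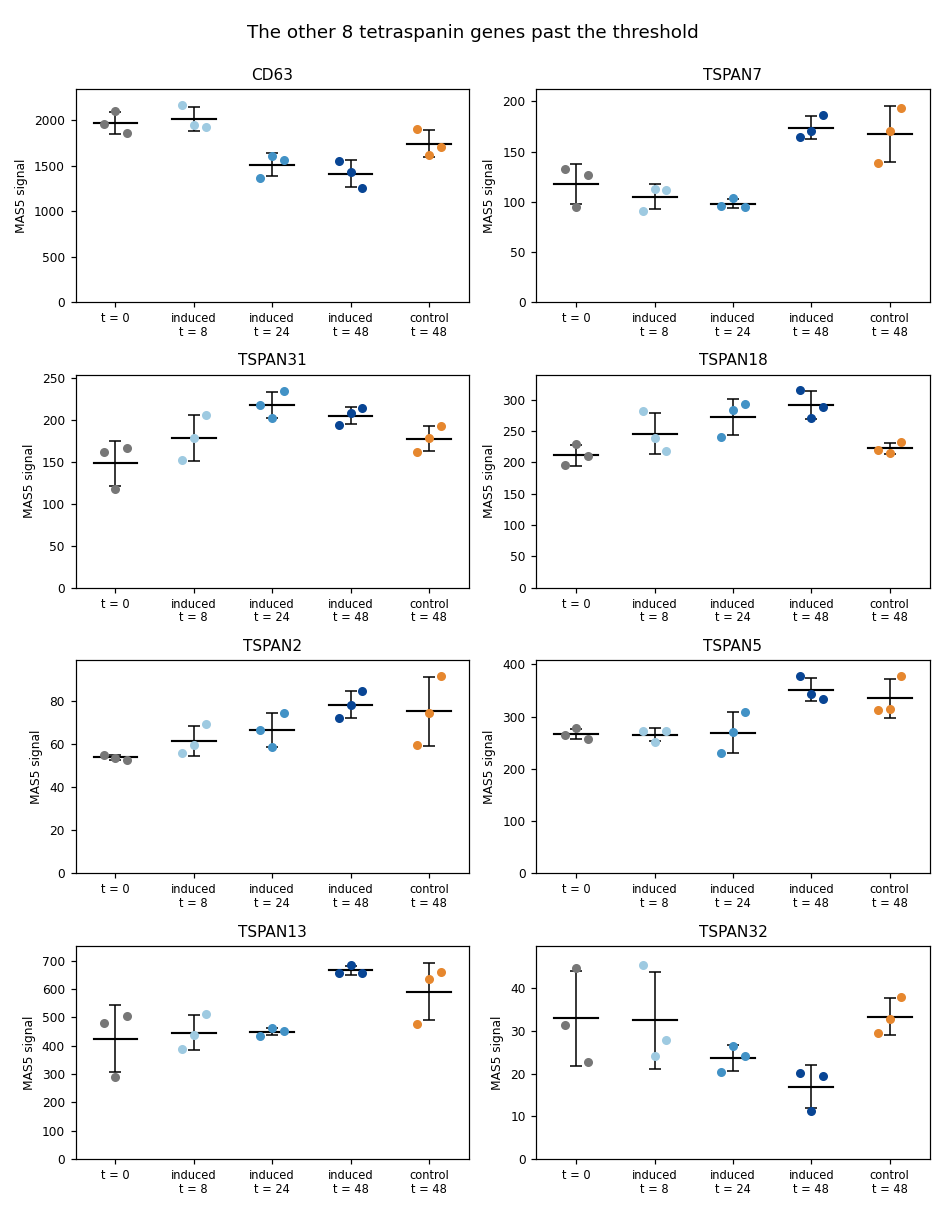
MAS5 signal (vertical axes, linear, from 0) on each of the 15 arrays, by group (horizontal axes), for the 8 tetraspanin genes other than CD9 that passed in at least 1 comparison; points are arrays, horizontal bars are means and error bars are SD (n = 3). TSPAN7, TSPAN13, TSPAN2 and TSPAN5 have overlapping induced and control arrays at t = 48, while CD63, TSPAN31, TSPAN18 and TSPAN32 do not. Those of TSPAN6, TSPAN9, TSPAN14, TSPAN17 and TSPAN33, which are not drawn and passed in no comparison, do not overlap either. The share of all genes without overlap is not given here, so lack of overlap is described only and is no result about the family.

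The remaining 5 tested members passed in 0 comparisons. CD82, a suppressor of metastasis also called KAI1, varied from array to array. It read 26.9, 52 and 13.2 at t = 0, 70.7, 33.1 and 70 at t = 8, and 55.8, 54.1 and 67.2 at t = 24. At t = 48 it read 24.3, 56.1 and 67.5 in induced and 46.4, 11.3 and 37.6 in control cells, which overlapped. Its largest difference, 0.99 at t = 24 against t = 0, had an SE of 0.50 (adjusted p = 0.233), so a change of that size could not be told from the spread. The dimmer probe set of CD82 gave 0.57 for this step (adjusted p = 0.387). CD151, which binds laminin-binding integrins, read 64.9 to 156.9, with -0.45 at t = 24 (adjusted p = 0.148) and -0.37 between induced and control cells at t = 48 (adjusted p = 0.257). TSPAN4, a marker of the membrane structures called migrasomes, read 100, 94 and 93.6 at t = 0 and 125.8, 111.1 and 131.4 at induced t = 48. Its difference of 0.34 fell just short of the threshold (adjusted p = 0.0579). TSPAN9, known from platelets, and TSPAN11 gave 0.17 and -0.16 between induced and control cells (adjusted p = 0.407 and 0.513). With TSPAN3 and TSPAN6, above, CD81, CD53 and the 4 other TspanC8 members, these made up the 13 tested genes that passed in 0 of the 7 comparisons.

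The 6 genes not tested were CD37, TSPAN1, TSPAN8, TSPAN10, TSPAN12 and TSPAN16, whose highest reading on any array was 23.8. TSPAN12 helps the Norrin receptor FZD4 signal, TSPAN1 and TSPAN8 are known from epithelia and their tumours, and TSPAN10 from pigment cells. The highest single readings were 20 for TSPAN1, 15.8 for TSPAN8, 16.9 for TSPAN10, 23.8 for TSPAN12 and 23.1 for TSPAN16. Signals this low say little about change.

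**Figure D4:**
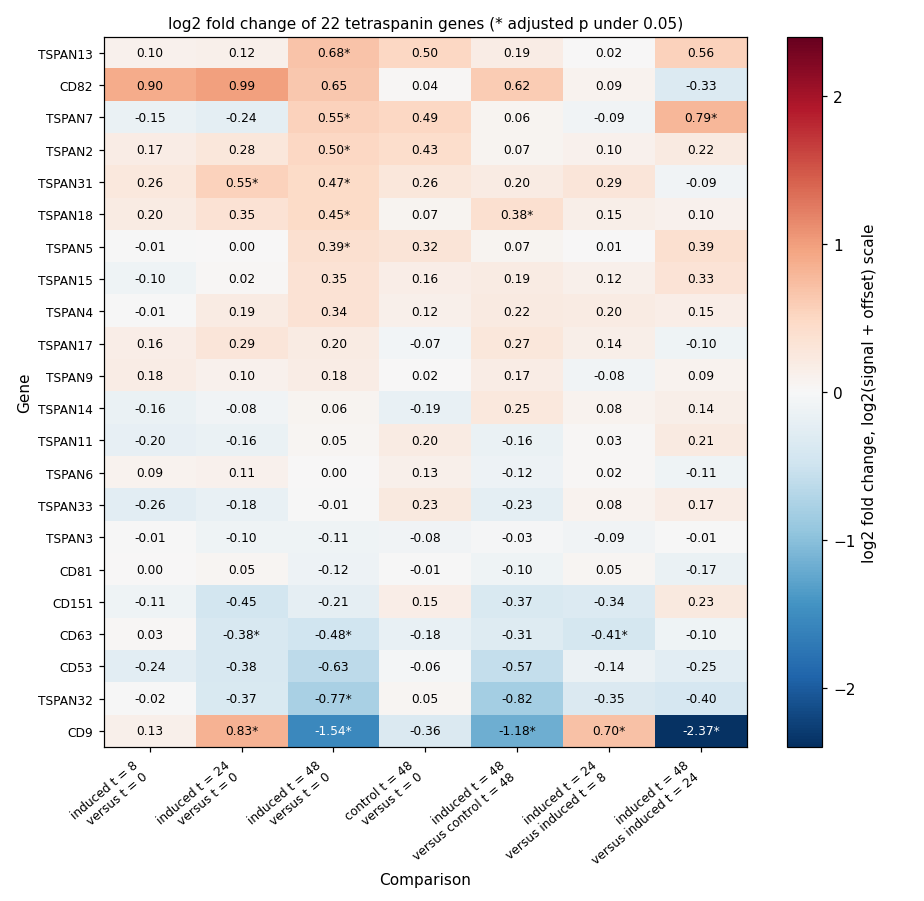
Log2 fold change on the log2(signal + offset) scale, as numbers and colour, of the 22 tested tetraspanin genes (rows, ordered by induced t = 48 against t = 0) in 7 comparisons (columns); a star marks a limma adjusted p under 0.05. CD9 has the lowest value, -2.37 between t = 24 and t = 48, and positive values of 0.83 and 0.70 at t = 24.

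The 9 calls at induced t = 48 against t = 0 came down with fewer arrays. Leaving out 1 array gave 4 without t = 0 replicate 2 or induced t = 48 replicate 2, 5 without induced t = 48 replicate 3, 6 without induced t = 48 replicate 1 or t = 0 replicate 1, and 7 without t = 0 replicate 3. The share of all genes that passed came down too, from 18.1% to between 11.7% and 15.3% in these refits. With each array centred on its median 4 passed, 1 higher and 3 lower, where 9.36% of all genes passed. The induced and control cells at t = 48 were both set against the same t = 0 arrays, and the values of the 6 higher genes stand side by side as follows. In induced and control cells they were 0.55 and 0.49 for TSPAN7, 0.68 and 0.50 for TSPAN13, 0.50 and 0.43 for TSPAN2, and 0.39 and 0.32 for TSPAN5. They were 0.47 and 0.26 for TSPAN31 and 0.45 and 0.07 for TSPAN18. For the 3 lower genes they were -1.54 and -0.36 for CD9, -0.48 and -0.18 for CD63, and -0.77 and 0.05 for TSPAN32. The median over the 22 genes was 0.12 in induced and 0.09 in control cells, against -0.02 and -0.01 over all genes.

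The partners of tetraspanins were taken from lists. Of 8 tested integrin genes, 2 were higher in induced than control cells at t = 48 and 0 lower, where 5.31% of all genes were higher and 3.29% lower. The list median was 0.17, against -0.01 over all genes. ITGA6, whose product pairs with other integrin chains as a laminin receptor, read 28.5, 40.1 and 17.1 at t = 0, 73, 55.6 and 77.3 at t = 8, and 142, 123.5 and 157.4 at t = 24. At t = 48 it read 168.6, 160.8 and 210.9 in induced and 48.3, 50.9 and 57.3 in control cells. The induced groups from t = 8 on were above t = 0 without overlap, and so were the controls, whose rise did not pass. The arrays of t = 8 overlapped with those of the controls. At t = 48 the difference of induced from control cells was 1.69 (SE 0.21, adjusted p = 0.00038). ITGB5, a chain of a vitronectin receptor, read 78.4, 72.9 and 78.3 in induced and 23.6, 22.6 and 17.1 in control cells (1.65, adjusted p = 0.00144). A second probe set of ITGA6 gave 1.35 (adjusted p = 0.0103) and one of ITGB5 1.90 (adjusted p = 0.039), while 2 dim ones of ITGB5 gave 1.39 and 0.24 and did not pass. ITGB1, the common partner chain, read 2086 ± 96.9 and 2115 ± 50.5 (-0.02, adjusted p = 0.892). While CD9 rose to t = 24 and then fell, ITGA6 had means of 141 and 180.1 at t = 24 and t = 48 (0.34, adjusted p = 0.542).

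Among the other lists, 0 of the 4 immunoglobulin-like partners passed between induced and control cells at t = 48, PTGFRN (0.12) and IGSF8 (0.03), the best-known partners of CD9 and CD81, included. IGSF3 was higher at induced t = 48 than at t = 0 on its brightest probe set (0.35, adjusted p = 0.0448), while 3 others gave 0.23, 0.40 and -0.43 and did not pass. In that comparison 9.93% of all genes were higher and 8.2% lower. Of 16 other membrane partners, the interferon-induced IFITM1 was higher (0.62, adjusted p = 0.0363) and the amino acid transporter chain SLC3A2 lower (-0.30, adjusted p = 0.0393), which makes 1 of 16 each way, where 5.31% and 3.29% of all genes passed. In other comparisons KIT, a receptor tyrosine kinase, was higher at induced t = 48 than at t = 0 (0.75, adjusted p = 0.00311), and ADGRG1, an adhesion receptor, lower at t = 24 (-1.39, adjusted p = 0.0391). At induced t = 48 against t = 0, 2 of these 16 partners were higher and 2 lower. TGFA, a growth factor precursor, was lower than at t = 0 at t = 48 in induced (-1.69, adjusted p = 0.00309) and control cells (-1.60, adjusted p = 0.0385), at means of 2.6, 3.13 and 20.3. CD46, a complement regulator, rose from t = 8 to t = 24 (0.34, adjusted p = 0.0121), from readings below those of t = 0. It read 741.7, 769.5 and 768.2 at t = 0, 596.2, 644.6 and 626.7 at t = 8, and 748.1, 787 and 830.6 at t = 24. The other probe sets of TGFA and ADGRG1 for these steps, and those of CD46, did not pass. Of 19 genes of extracellular vesicle machinery 0 passed between induced and control cells, with a median of -0.09. Against t = 0, VPS4A was lower at t = 24 (-0.49, adjusted p = 0.0165), and ANXA2 (-0.46, adjusted p = 0.0226) and HGS (-0.26, adjusted p = 0.0321) at induced t = 48. That makes 1 of 19 lower at t = 24, where 4.87% of all genes were, and 2 of 19 at t = 48, where 8.2% were. A second probe set of HGS gave 0.29 (adjusted p = 0.784), and 2 of 3 others of ANXA2 passed (-0.49 each). Of the 3 tested genes of the receptor complex of TSPAN12, 0 passed against controls. LRP6 was higher at induced t = 48 than at t = 0 (0.27, adjusted p = 0.0185), where 9.93% of all genes were higher. Its 2 other probe sets gave -0.24 and 0.64 for this step and did not pass. The 1 tested gene among tetraspanins outside the naming rule and the L6 family did not pass in any comparison.

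The 5 genes whose signals followed CD9 most closely over the 15 arrays were LBX2-AS1 (Pearson's r = 0.945), GPM6B (0.925), KAZN (0.917), SYN2 (0.914) and TBX2 (0.913). They were picked for this likeness from 12868 genes, and the 15 arrays are 5 groups of 3, so the values describe the picks alone. GPM6B encodes a neuronal membrane protein with 4 membrane spans that is no tetraspanin. Its mean read 1903 at t = 0, 2051 at t = 8, 2083 at t = 24, 1175 at induced t = 48 and 1647 in controls. TBX2, a T-box transcription factor, read 554.8, 561.3, 800.1, 333.5 and 384 in the same order. All 5 had their lowest group mean in induced cells at t = 48 and their highest at t = 24, as CD9 did.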

How the data were processed

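The authors deposited 1 intensity per probe set and array, on a linear scale and not on a log scale, made with MAS5 in GCOS (submitters' processing notes; version and settings are not given in the sources used here). Without the top and bottom 2 percent of probe sets the mean of every array was 100.01. Each gene was read by the probe set with the highest mean signal over the 15 arrays, among 41091 with a single symbol. The offset of 5.16, the mean lower quartile of signal, was added before log2. A gene entered the tests if at least 3 arrays had it at or above their own median, which held for 12868. The 5 group means were fitted with limma 3.58.1 (lmFit, eBayes, two-sided) in R 4.3.3 on all 15 arrays, with Benjamini-Hochberg adjustment over the 12868 genes and a threshold of 0.05. Other probe sets were fitted over all 41091 without the filter, so their adjusted p-values are not on the footing of the calls. In that fit the brightest probe sets of TSPAN2 (limma adjusted p = 0.0731), TSPAN13 (0.0673) and TSPAN18 (0.0535) did not pass at induced t = 48 against t = 0. Figures were drawn with matplotlib 3.10.9.

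The members, lists and tests were chosen with earlier results of these data known. Every member is named; those that passed are given on every array, and of each list the genes that passed, up to 6. The 5 genes with the highest Pearson correlation with CD9 are named too. The fit was tested on 20 simulated tables for induced against control cells at t = 48 with 12868 genes, of which 200 were changed. It called 79% of 2-fold and 35.7% of 1.41-fold changes, and 5.31% of its calls were unchanged genes. In the data 1107 genes passed in this comparison. The adjustment depends on how many genes change, so the share recovered in the data can differ from that in the simulated tables. The main fit did not pair arrays by replicate number. The labels do not say whether same-numbered arrays shared a culture. Deviations of same-numbered arrays correlated above 0.1 in 1 of 21 pairs (-0.28 to 0.12), which cannot exclude a shared culture. No 2 arrays held the same values. Array numbers limit the precision. Groups of 3 arrays can lack overlap without a call, as induced and control cells at t = 48 did for TSPAN14, TSPAN17 and TSPAN33.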

Additional observations from a re-analysis of the deposited data

How the results depend on the processing

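Counts of tetraspanin genes past the threshold were recomputed under 12 settings and without each array of a comparison in turn. The count of 0 at t = 8 and in controls against t = 0 was 0 in each, without 1 array too. Against controls at t = 48 the count of 2 became 1 with an offset of 1, with no filter, with only the compared groups fitted, with the replicate number as a block, and without any 1 array (1 to 1), and CD9 was the gene left. It stayed 2 with arrays centred on their median, on that of the genes tested (an alternative added after seeing the data) or with quantile normalization, but with 0 higher and 2 lower, CD9 and TSPAN32, against 1 and 1. Without the 2 arrays with a weak bioC control it was 2, CD53 and CD9, both lower. It was 3 with the filter at the 60th percentile (TSPAN32 gained) and with trend and robust eBayes (CD63 gained). At t = 24 against t = 0 the count of 3 became 1 with arrays centred on their median or only the compared groups fitted, and 1 to 3 without 1 array. At t = 48 against t = 0 the 9 became 4 with arrays centred on their median, 4 with no filter, 5 with only the compared groups fitted, 5 without the 2 arrays with a weak bioC control, and 4 to 7 without 1 array. From t = 8 to t = 24 the 2 became 1 with arrays centred on their median, quantile normalization, no filter, only the compared groups fitted or without the weak arrays, and 1 to 2 without 1 array. From t = 24 to t = 48 the 2 became 1 with arrays centred on their median or without the weak arrays, and were 2 to 3 without 1 array. The block gave 3, 8, 2 and 2 in these last 4 comparisons; TSPAN18 against controls (adjusted p = 0.0876) and TSPAN32 against t = 0 (0.0699) were the calls it ended. The cause of these changes was not tested.

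Among the 18 calls of single genes, directions turned only between probe sets of CD9. Its dimmest probe set gave 0.38 against controls, -0.22 at t = 24 and 0.27 at t = 48 against t = 0, and 0.49 from t = 24 to t = 48. The middle one gave -0.026 at t = 24 against t = 0 and -0.13 from t = 8 to t = 24. None of these passed. Of the 13 calls of other genes 1 was kept in every refit, that of CD63 at t = 48 against t = 0. Probe sets near the array's median limit what CD53 and TSPAN32 can show, and the spread between arrays limits what CD82 can show.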
